A study of Canis lupus familiaris with 6 samples.

Results

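The whole-blood transcriptome of control dogs was described from the 3 control libraries, which were 3 of the 6 libraries of the series. These libraries were chosen by their labels alone, and no value of the 3 supplemented dogs was used. The study fed casein phosphopeptide-selenium (CPP-Se) chelate to Beagle dogs and profiled their blood, drawing on 12 healthy adults aged 1.5 years. The control dogs ate maintenance food and, after it, 30 g of a control snack without CPP-Se. How often per day the snack was given and the selenium content of the food are not given in the sources used here. Blood was taken on day 30 of this feeding, which had followed 7 days of acclimatization. Each control library was labelled as a biological replicate and is called a dog here. Whether a library held blood of 1 dog or of several is not given in the sources used here, and neither is the sex of the dogs, so the spread given is that between 3 libraries. The libraries are called control replicates 1, 2 and 3, numbers that carry no order.

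Whole blood is a mixture. Red cells carry no nucleus when mature, but young red cells (reticulocytes) still hold messenger RNA, most of it for the globin chains of hemoglobin. Platelets carry RNA inherited from megakaryocytes, neutrophils are the most frequent white cells of dog blood and hold little RNA each, and lymphocytes, monocytes, eosinophils and basophils add their own transcripts. In such bulk samples, fewer cells of a type and less RNA per cell cannot be told apart, and blood cell counts of these dogs were not analysed here.

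The deposited values were FPKM, fragments scaled by gene length and by library size, for 31512 genes. FPKM times gene length returned whole reads for 100% of the genes with a value, within 0.01 of a read. By these recovered reads, 6598173, 6838746 and 7665265 reads lay on genes in control replicates 1, 2 and 3, and 13755, 13243 and 13974 genes were above 0. The floor of 3 reads used here covers counting error only, since no molecular identifiers are named for the libraries. A listed 0 does not bound a level, because RPS28 and RPS23, ribosomal protein genes that every cell uses, were also listed at 0 in all 3 dogs. Reads shared by near-identical gene copies, overlapping genes and antisense genes could not be assigned with certainty, because the handling of strand and of shared reads is not given in the sources used here.

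Of the 31512 genes, 12078 were above 0 in all 3 dogs, 1427 in 2 dogs, 1884 in a single dog and 16123 in none. Of the genes seen in a single dog, 83.01% held no more than 3 reads there. At a threshold of 1 FPKM, 8425 genes (26.74%) were detected in all 3 dogs. Only 384 genes reached 100 FPKM in all 3 dogs, and 28 reached 1000 FPKM.

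The gene with the highest level was ENSCAFG00000032615, described as hemoglobin subunit alpha, the alpha-type globin chain of adult hemoglobin. Its level was 135444 FPKM in control replicate 1, 166009 in control replicate 2 and 141498 in control replicate 3. This one gene held 28.48%, 32.1% and 30.84% of summed FPKM, and 40.89%, 45.2% and 43.3% of the recovered reads. The level was highest in control replicate 2, and its coefficient of variation (CV, the SD over the mean) was 0.11. The files place it on chromosome 6, positions 40235272 to 40329010, of the Ensembl release 100 dog genome, with 2918 bases of annotated gene length, a span that overlaps FAM234A and LUC7L.

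The 20 most abundant genes by mean FPKM held 49.39% ± 2.167 (SD, n = 3 dogs) of summed FPKM, with 47.69%, 51.83% and 48.64% in control replicates 1, 2 and 3. In these dogs 27, 16 and 24 genes were enough for 50% of summed FPKM, and 1712, 1520 and 1777 genes for 90%. The 8 hemoglobin genes held 35.75% ± 2.095 of summed FPKM and 50.33% ± 2.403 of the recovered reads. Without them the 20 highest remaining genes held 22.96% ± 1.008 of what was left, and 150, 132 and 170 genes were needed for 50% of it.

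**Figure D1:**
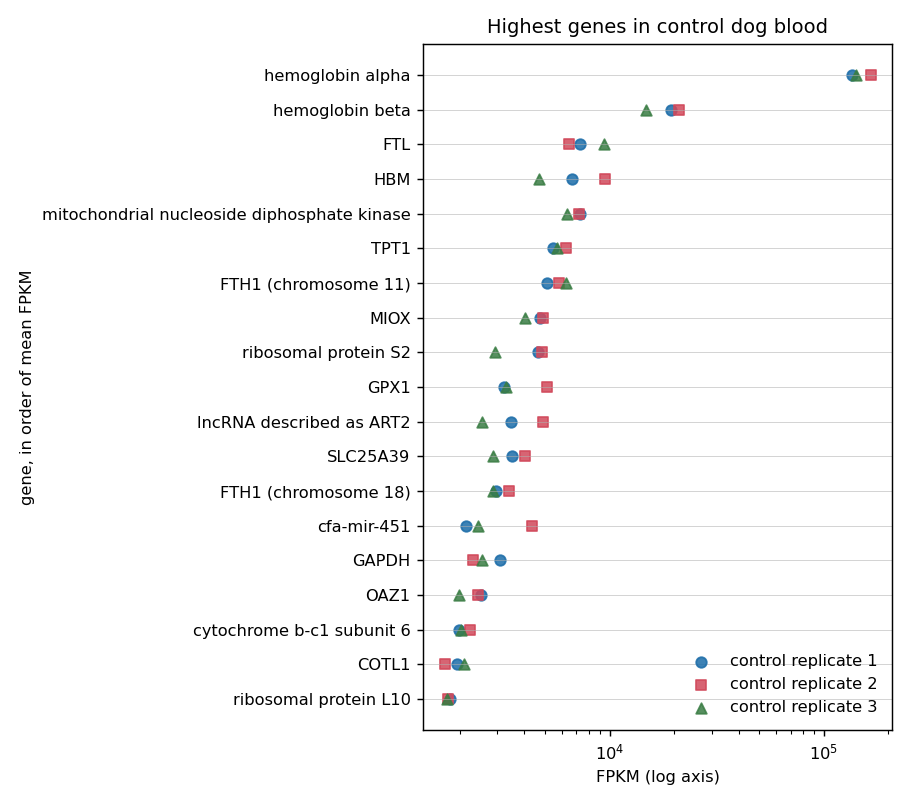
FPKM (horizontal log axis) of 19 of the 20 genes with the highest mean in the 3 control dogs, 1 point per dog and no error bar. Hemoglobin alpha lies between 135444 and 166009 FPKM, far to the right of hemoglobin beta, and cfa-mir-451 and HBM spread more between dogs than the ribosomal protein L10 gene at the bottom.

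**Figure D2:**
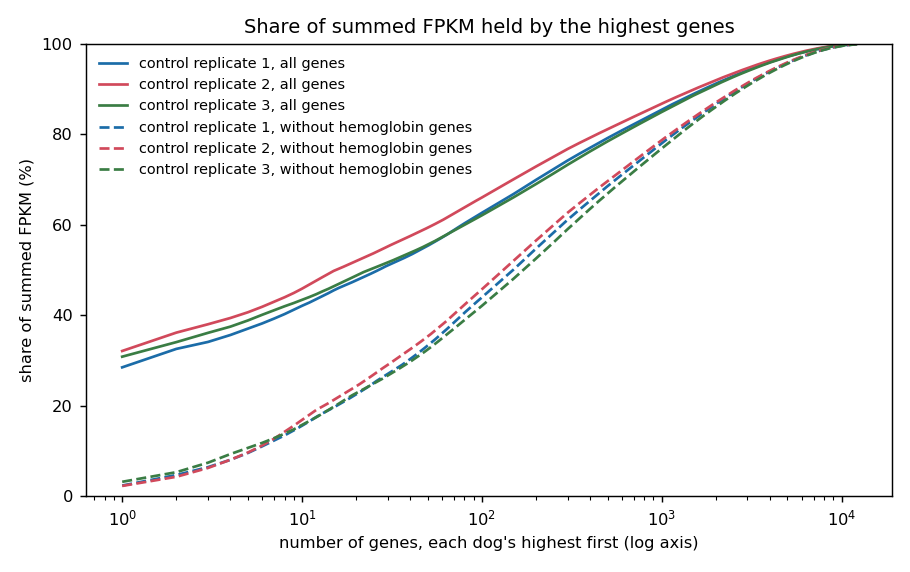
Share of summed FPKM in percent held by each dog's highest genes, with the number of genes on a log axis, for all genes (solid) and after the 8 hemoglobin genes were left out (dashed). The solid lines start at 28.48%, 32.1% and 30.84% with the first gene, and the dashed lines start at 2.335%, 2.249% and 3.164%.

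Hemoglobin carries oxygen as a tetramer of alpha-type and beta-type chains, and the embryonic chains (zeta and epsilon) are replaced during development. The beta gene ENSCAFG00000030286 (chromosome 21, 28178124 to 28206005) followed alpha with 19442, 21033 and 14755 FPKM. The ratio of alpha to beta FPKM was 6.967, 7.893 and 9.59, so alpha exceeded beta in each dog and by the widest margin in control replicate 3. FPKM divides by annotated length, and the annotated lengths were 2918 bases for alpha and 3398 bases for beta. HBM, the mu chain gene next to alpha on chromosome 6, stood at 6688, 9553 and 4673 FPKM, highest in control replicate 2 and lowest in control replicate 3. A further gene described as hemoglobin beta, ENSCAFG00000029568, lay within the span of the first beta gene on the opposite strand and reached 395.6, 418.5 and 143.6 FPKM.

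The embryonic globin genes were low, at under 5 FPKM in each dog. The zeta gene ENSCAFG00000028569, which overlaps HBM, was at 4.614, 0.7853 and 0.3562 FPKM, or 44, 7 and 4 reads. The epsilon gene ENSCAFG00000041928 was at 1.491, 0.7976 and 1.266 FPKM, no more than 4 reads in any dog. Of the 6 hemoglobin genes whose mean was 1 FPKM or more, 4 were highest in control replicate 2 and 4 were lowest in control replicate 3. These 6 include the zeta and epsilon genes with their few reads. Over all 9716 genes with such a mean, control replicate 2 was highest in 34.58% and control replicate 3 lowest in 34.81%.

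Among the other genes of the top 20, 3 encoded ferritin chains, which store iron. FTL, the ferritin light chain, ranked 3 with 7323, 6477 and 9418 FPKM, highest in control replicate 3. The ferritin heavy chain appeared as a pair of genes named FTH1, on chromosome 11 with 5099, 5809 and 6242 FPKM and on chromosome 18 with 2965, 3410 and 2864 FPKM. Together 19 genes described as ferritin chains summed to 17775, 17775 and 19878 FPKM, or 3.836% ± 0.4561 of the total. Several of these 19 are near-copies that can share reads. The light chain copy ENSCAFG00000005494 on chromosome 23 had 1865, 1624 and 281.8 FPKM, low in control replicate 3, while the copy ENSCAFG00000002336 on chromosome 13 had 370.1, 303.3 and 631.7 FPKM, high in the same dog.

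Several enzymes and carriers ranked with them. ENSCAFG00000032180, described as mitochondrial nucleoside diphosphate kinase, which balances nucleotide triphosphates, was at 7311, 7200 and 6339 FPKM. MIOX, which encodes the enzyme that opens the ring of myo-inositol, was at 4726, 4918 and 4014 FPKM. GPX1, the selenium-containing glutathione peroxidase that removes hydrogen peroxide in red and white cells, was at 3237, 5126 and 3301 FPKM. GPX1 was highest in control replicate 2, like the red cell genes described further on, and the other dogs lay close to each other. SLC25A39, a carrier of the mitochondrial inner membrane, was at 3498, 4026 and 2873 FPKM.

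The translation machinery gave another group of the top 20. TPT1, the translationally controlled tumor protein, stood at 5460, 6261 and 5711 FPKM. The ribosomal protein S2 gene ENSCAFG00000019472 stood at 4616, 4846 and 2927 FPKM. Control replicate 3 was lowest for S2, whereas the ribosomal protein L10 gene ENSCAFG00000045333 differed little between dogs, with 1803, 1762 and 1742 FPKM and a CV of 0.017.

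Other places were held by OAZ1 (the antizyme that limits polyamine synthesis), GAPDH (a glycolytic enzyme), COTL1 (an actin-binding protein of white cells), ENSCAFG00000004260 (a subunit of cytochrome b-c1), a microRNA gene and an lncRNA gene. OAZ1 had 2518, 2441 and 1978 FPKM, and GAPDH had 3070, 2304 and 2536 FPKM. COTL1 had 1953, 1703 and 2105 FPKM, lowest in control replicate 2. ENSCAFG00000004260 had 1993, 2224 and 2034 FPKM.

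By annotated biotype, protein-coding genes held 96.27%, 95.69% and 96.26% of summed FPKM, a mean of 96.07% ± 0.3316. Of the 20199 protein-coding genes, 7956 (39.39%) reached 1 FPKM in all 3 dogs, against 129 of 7077 lncRNA genes (1.823%). Genes that carried only an assembly name and no annotated biotype, 561 in all, reached 1 FPKM in all 3 dogs in 41.53% of cases and held 0.7992% ± 0.04444 of summed FPKM. The dogs differed by less than 1 percentage point in the share of protein-coding genes.

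Long noncoding RNA held 1.218%, 1.4% and 1.072% of summed FPKM. Most of it came from 1 gene, ENSCAFG00000047367, on an unplaced contig of the assembly, with 3484, 4918 and 2544 FPKM and a mean share of 0.746%. Its description names ART2, a yeast open reading frame antisense to ribosomal RNA. The single expressed gene of the 17 annotated as rRNA, ENSCAFG00000028987 on another unplaced contig, had 1284, 1890 and 855 FPKM. Both genes were highest in control replicate 2 and lowest in control replicate 3. The libraries were made from poly-A-enriched RNA, and the part of residual ribosomal RNA in these values was not tested.

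MicroRNA genes held 0.5657%, 0.9339% and 0.6683% of summed FPKM but only 0.02497% of the recovered reads, since their annotated hairpins are short and FPKM divides by length. The largest was cfa-mir-451, the hairpin of an erythroid microRNA that is processed without Dicer, on chromosome 9 from 43030863 to 43030931. It had 2134, 4331 and 2441 FPKM, from 1005, 1907 and 1354 reads, and was highest in control replicate 2. The myeloid microRNA gene cfa-mir-223 followed with 173.5, 130.9 and 218.6 FPKM, lowest in that dog. An mRNA library is not designed to capture mature microRNAs, and their levels were not measured.

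Pseudogenes held 0.3709% ± 0.03713 of summed FPKM, of which ENSCAFG00000003159, a GAPDH-like copy, had 794.8, 584.2 and 579.6 FPKM. Small nucleolar RNA genes held 0.043%, with SNORD104 at 41.27, 24.28 and 15.77 FPKM from 20, 11 and 9 reads. Annotated immunoglobulin variable segments held 0.05778% ± 0.01642. The classes Y_RNA (26 genes), vaultRNA (1 gene) and TR_C_gene (1 gene) were at 0 in all 3 dogs. A poly-A library is not designed to capture Y RNA and vault RNA.

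The mitochondrial genome (37 genes) held 1.237%, 1.458% and 1.549% of summed FPKM. COX3 had 1061, 1247 and 1066 FPKM and MT-CO1 had 743.6, 849.5 and 923 FPKM, both subunits of cytochrome c oxidase. The small mitochondrial rRNA gene ENSCAFG00000022709 had 668.5, 1275 and 1396 FPKM, lowest in control replicate 1. Control replicate 1 was the lowest dog in 13 of the 22 mitochondrial genes whose mean was 1 FPKM or more. Over all 9716 genes with such a mean, control replicate 1 was lowest in 28.69%. Chromosome 6 held 37.2% of summed FPKM, which became 8.255% once the hemoglobin genes were left out.

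Lists of marker genes gave the blood lineages. Of 263 listed symbols in 15 lists, 221 were matched, the others were not analysed here, and 137 of the 221 reached 1 FPKM in all 3 dogs. Beside the hemoglobin list, the red cell list, which shares HBM with it, had the highest mean sum, followed by neutrophil, platelet, T cell and monocyte lists. Without HBM the red cell sum of control replicate 3 was 2196 FPKM, below the neutrophil and platelet sums of that dog. The place of the T cell list rested on CD4: without it the T cell sum fell from a mean of 1372 to 330.4 FPKM, below the mean of the monocyte list (1245) and that of the B cell list (377.8), although it exceeded the B cell sum in control replicate 2. Some neighbours in this order changed places between dogs. The platelet sum of control replicate 3 (2900 FPKM) exceeded the neutrophil sum of that dog (2623 FPKM), while in the other dogs the neutrophil sum was higher. With HBM, the red cell sum exceeded the neutrophil sum in each dog. List sums depend on which genes are in a list and are no cell counts. Over all 9716 genes whose mean was 1 FPKM or more, control replicates 1, 2 and 3 were the highest dog in 30.3%, 34.58% and 35.12% of genes and the lowest in 28.69%, 36.5% and 34.81%, and the counts of list members are to be read against these.

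**Figure D3:**
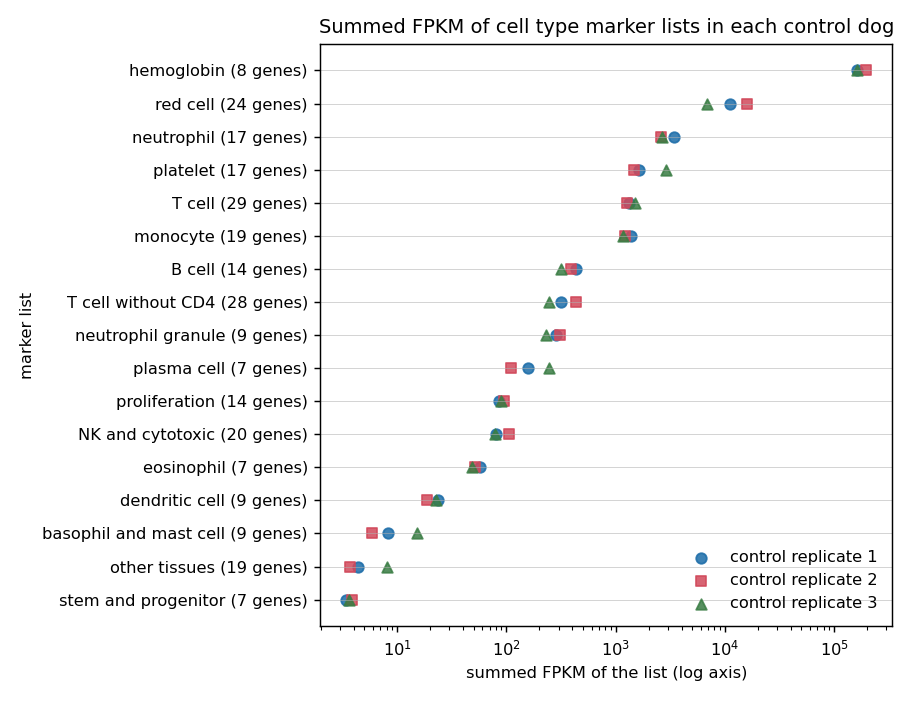
Summed FPKM (log axis) of each marker list in the 3 control dogs, 1 point per dog and no error bar; HBM belongs to both the hemoglobin and the red cell list. The red cell sum lies between 6869 and 15990 FPKM, the stem and progenitor sum between 3.433 and 3.869 FPKM.

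Red cell genes were highest in control replicate 2. The 24 genes of the list summed to 11035, 15990 and 6869 FPKM, or 2.303% ± 0.7973 of the total, and 20 of them reached 1 FPKM in all 3 dogs. Of the 21 members whose mean was 1 FPKM or more, 18 were highest in control replicate 2 and 14 were lowest in control replicate 3. HBM alone made up 61.7% of the sum, and without it the sums were 4347, 6436 and 2196 FPKM in the same order of dogs.

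ALAS2, the first enzyme of heme synthesis in red cells, had 1545, 2292 and 1085 FPKM. AHSP, the chaperone of free alpha chains, had 571, 1104 and 194.3 FPKM, so that control replicate 2 exceeded control replicate 3 more than for ALAS2. BLVRB, a flavin reductase abundant in red cells, had 1563, 1967 and 295.8 FPKM and was low in control replicate 3 alone. DMTN, the membrane skeleton protein dematin, had 202.4, 317.1 and 217 FPKM. HEMGN, an erythroid nuclear protein, varied most, with 12.15, 42.13 and 10.76 FPKM and a CV of 0.818.

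Platelet genes were highest in control replicate 3. The 17 genes summed to 1632, 1471 and 2900 FPKM, 0.4199% ± 0.1861 of the total, and 14 reached 1 FPKM in all 3 dogs. Control replicate 3 was the highest dog in 14 of 15 members whose mean was 1 FPKM or more, and control replicate 2 the lowest in 11. PPBP, the precursor of platelet basic protein, had 352.5, 311.5 and 735.2 FPKM. ITGA2B, the alpha chain of the fibrinogen receptor, had 213.8, 177.9 and 391.1 FPKM.

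MPIG6B, an inhibitory platelet receptor, had 232.1, 190.5 and 337 FPKM, and NRGN (neurogranin) had 197.6, 155.5 and 376.4 FPKM. GP1BB, a chain of the von Willebrand factor receptor, had 98.85, 121.5 and 249 FPKM. GP6, the collagen receptor, spread most, with 14.19, 14.93 and 52.17 FPKM. CMTM5 was listed at 0 in all 3 dogs. For every platelet gene given with a value here control replicate 3 was the highest dog, and for GP1BB and GP6 the lowest was control replicate 1.

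Neutrophil genes were highest in control replicate 1. The 17 genes summed to 3396, 2581 and 2623 FPKM, 0.5949% ± 0.1094 of the total, with 13 at 1 FPKM or more in all 3 dogs and 10 of 14 members highest in control replicate 1. CSF3R, the receptor for granulocyte colony-stimulating factor, went another way, with 912.2, 711 and 1084 FPKM. The calcium-binding alarmins S100A12 (754.2, 510.2 and 394.6 FPKM) and S100A8 (769.9, 568.4 and 278.3 FPKM) were highest in control replicate 1 and lowest in control replicate 3. The chemokine receptor CXCR2 had 209.9, 159.6 and 209.5 FPKM. MME was listed at 0 in all 3 dogs.

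Neutrophil granule genes ranged from over 100 FPKM to 0. LTF (lactoferrin), an iron-binding granule protein, had 202.2, 185.4 and 150.6 FPKM, and BPI, which binds bacterial endotoxin, had 59.22, 86.2 and 57.7 FPKM. MMP8, a collagenase, had 17.19, 21.35 and 3.07 FPKM, and LCN2, an iron-siderophore binder, had 2.259, 15.24 and 16.38 FPKM, so that each was low in a different dog. CAMP was below 1 FPKM in all dogs. The primary granule genes MPO and ELANE, which are transcribed in marrow precursors, had no more than 2 reads in any dog, and OLFM4 and DEFB1 were listed at 0.

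The sum of the monocyte list varied less than that of the neutrophil list, while its single genes varied more, with a median CV of 0.2813 against 0.1606. The 19 genes summed to 1368, 1206 and 1159 FPKM, 0.2579% ± 0.02753 of the total, and the highest dog was spread over all 3, with 7, 5 and 5 of 17 members. LYZ (lysozyme) had 620.3, 589 and 391 FPKM, and the lysosomal protein CD68 had 161.5, 132.1 and 247.3 FPKM. FGL2 had 196.4, 115.2 and 131 FPKM. FCGR1A, the high-affinity IgG receptor, had 96.89, 87.08 and 79.71 FPKM, and CSF1R, the receptor for macrophage colony-stimulating factor, had 69.71, 76.84 and 92.24 FPKM. LYZ, FGL2 and FCGR1A were highest in control replicate 1, and CD68 and CSF1R in control replicate 3.

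Dendritic cell, eosinophil and basophil lists were low. The 9 dendritic cell genes summed to 23.8, 18.67 and 22.52 FPKM, of which IRF8, a transcription factor also used by monocytes and B cells, made up 70.26%. The 7 eosinophil genes summed to 57, 51.98 and 48 FPKM, of which ADGRE1 made up 77.42%. CCR3, the eotaxin receptor, had 3.788, 4.486 and 6.202 FPKM, and PRSS33 and PRG3 were listed at 0. The 9 basophil and mast cell genes summed to 8.286, 5.885 and 15.09 FPKM, led by MS4A2, a chain of the IgE receptor, with 4.513, 3.886 and 9.252 FPKM. The basophil and mast cell list rested on 78, 52 and 173 reads in all, against 1427, 1195 and 1358 for the eosinophil list.

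B cell genes summed to 434.6, 386.2 and 312.6 FPKM over 14 genes, lowest in control replicate 3 for 7 of 11 members. CD79A, the signalling chain of the B cell receptor, had 328.9, 304.4 and 233.2 FPKM and made up 76.45% of the sum. Its partner CD79B had 47.78, 31.89 and 28.18 FPKM. POU2AF1, a coactivator of immunoglobulin genes, went the other way, with 18.05, 12.36 and 23.12 FPKM.

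Plasma cell genes were highest in control replicate 3, in 6 of 6 members whose mean was 1 FPKM or more. Their sums were 156.9, 109.4 and 246.1 FPKM, and JCHAIN, which joins IgA and IgM into polymers, had 130.4, 85.47 and 205.7 FPKM. MZB1, a chaperone of antibody secretion, had 9.653, 4.112 and 13.51 FPKM. In this list control replicates 1 and 2 were each lowest in 3 of the 6 members.

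Immunoglobulin constant genes, found by their descriptions, showed the same highest dog. The 10 genes summed to 2308, 1659 and 4698 FPKM, 0.6101% ± 0.3679 of the total. The IgA heavy chain gene ENSCAFG00000032358 on chromosome 8 had 902.7, 634.2 and 2353 FPKM. IGHM, the IgM heavy chain, had 811.4, 612.1 and 1033 FPKM. The light chain gene IGKC had 272.4, 174.6 and 654.3 FPKM and the lambda gene ENSCAFG00000031806 had 152.1, 119.6 and 435.6 FPKM.

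The IgD heavy chain gene ENSCAFG00000049475 had 34.9, 16.21 and 6.202 FPKM, and was lowest in control replicate 3, where IgA was highest. IgD marks naive B cells, whereas IgA is secreted by plasma cells. The IgE heavy chain gene ENSCAFG00000018448 was at 3.214, 2.619 and 0.3465 FPKM, with 63, 48 and 8 reads. The IgG gene ENSCAFG00000030258, whose annotated span covers IGHM and other heavy chain segments, had 69.59, 65.81 and 111.6 FPKM. Because these heavy chain genes overlap, their separate levels are uncertain.

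T cell genes held 0.2851% ± 0.0405 of summed FPKM, and CD4 made up 75.91% of the list's sum. CD4, the coreceptor of helper T cells, had 1019, 849 and 1256 FPKM. CD3E, a chain of the T cell receptor complex that every T cell carries, had 30.24, 38.32 and 13.77 FPKM, and CD8A, the coreceptor of cytotoxic T cells, had 7.345, 12.35 and 7.47 FPKM. The ratio of CD4 to CD3E was 33.69, 22.16 and 91.24. The ratio of CD4 to CSF3R was 1.117, 1.194 and 1.158. CSF3R did not follow most of the neutrophil list, in which 10 of 14 members were highest in control replicate 1. CD4 was lowest in the dog in which CD3E was highest. Dog neutrophils, unlike human ones, carry CD4 on their surface, and the part of neutrophil RNA in the CD4 level was not tested.

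Without CD4, the T cell list of 28 genes summed to 314.2, 429.5 and 247.5 FPKM. Control replicate 2 was the highest dog in 24 of 27 members and control replicate 3 the lowest in 19. LCK, the kinase that starts signalling from the T cell receptor, had 33.66, 38.38 and 23.63 FPKM. CCR7, the homing receptor of naive T cells, had 35.09, 41.97 and 13.55 FPKM. The transcription factor TCF7 had 25.08, 43.79 and 19.15 FPKM.

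LAT, an adaptor shared with platelets, had 24.69, 24.65 and 42.68 FPKM. It was among the 2 of these 27 members that were highest in control replicate 3. The part of platelet RNA in the LAT level was not tested. The T cell receptor alpha constant gene ENSCAFG00000025128 had 76.16, 96.74 and 46.58 FPKM. The gamma and delta constant genes were at or below 3 FPKM in each dog.

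NK and cytotoxic genes summed to 79.69, 105.8 and 79.14 FPKM, with control replicate 2 the highest dog in 9 of 15 members. IL2RB, a receptor chain for interleukin-2 and interleukin-15, had 23.07, 30.14 and 21.36 FPKM, and CTSW, a protease of cytotoxic cells, had 10.55, 19.16 and 8.96 FPKM. CCL5, a chemokine of T cells and platelets, spread most, with 1.69, 0.5423 and 8.896 FPKM, and was highest in control replicate 3.

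The progenitor list summed to 3.433, 3.869 and 3.608 FPKM over 7 genes. CD34, the marker of blood stem cells, held 1 read in control replicate 3 and none in the other dogs. Proliferation genes summed to 84.55, 94.02 and 89.5 FPKM, led by PCNA, the DNA polymerase clamp, with 27.61, 34.19 and 25.18 FPKM.

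Markers of other tissues were low. The 19 genes, which mark solid tissues such as muscle, liver, skin, fat and brain, summed to 4.394, 3.725 and 8.141 FPKM, and 10 of them were listed at 0 in all 3 dogs, COL1A1, COL1A2, COL3A1 and DCN among them. The remaining genes held 205, 167 and 495 reads in all. Of these, 3 averaged 1 FPKM or more, but only 1 reached 1 FPKM in all 3 dogs. The 3 were each highest in control replicate 3, and KDR passed the mean of 1 FPKM only through that dog. The highest, MYH7, a myosin heavy chain, had 1.608, 1.425 and 3.062 FPKM. The vascular receptor KDR had 0.8538, 0.5751 and 2.685 FPKM.

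**Figure D4:**
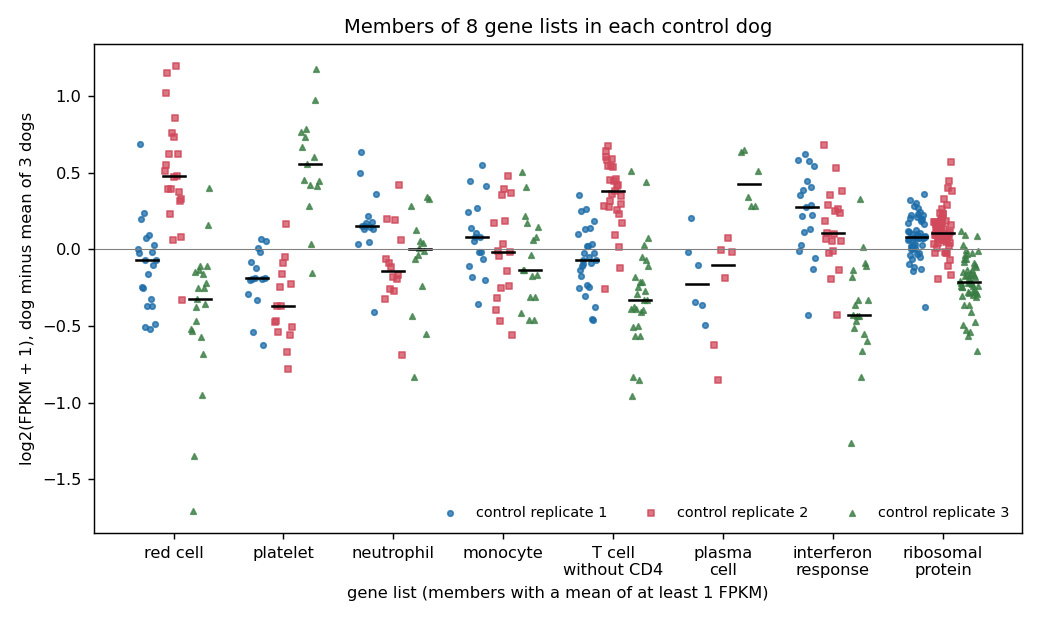
Difference of each dog from the mean of the 3 dogs in log2(FPKM + 1) for members of 8 lists whose mean was 1 FPKM or more, with 1 point per gene and dog and a bar at the median of each dog. Platelet and plasma cell genes lie highest in control replicate 3, red cell and T cell genes in control replicate 2, and ribosomal protein genes lie lowest in control replicate 3 (44 of 54 genes).

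Stress and handling genes were measured beside the lineages. Of 24 immediate early genes, which cells switch on within minutes, 15 reached 1 FPKM in all 3 dogs, and their sums of 1082, 1037 and 1123 FPKM differed little. ZFP36, which degrades cytokine messages, had 243.9, 237.6 and 243.2 FPKM, and JUNB had 201.4, 247.1 and 239.1 FPKM. FOSB, a partner of JUN proteins, varied most, with 0.3296, 0.999 and 2.146 FPKM. The 8 heat shock genes summed to 324.5, 345.7 and 342.8 FPKM, led by the chaperone HSPA8 with 111.9, 124.9 and 110.3 FPKM.

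Interferon response genes were lowest in control replicate 3 in 15 of 19 members whose mean was 1 FPKM or more, and summed to 267.2, 261.2 and 157.2 FPKM. ISG15, a ubiquitin-like protein induced by interferon, had 58.41, 62.49 and 15.47 FPKM. OAS1, a sensor of double-stranded RNA, had 41.94, 34.24 and 23.92 FPKM. Over all 9716 genes, control replicate 3 was the lowest dog in 34.81%.

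Antigen presentation genes were abundant. The 9 listed genes summed to 2937, 2987 and 3207 FPKM, of which B2M, the invariant chain of class I molecules, made up 56.58%, at 1742, 1626 and 1799 FPKM. CD74, the invariant chain of class II molecules, was at 639.4, 772.7 and 798.9 FPKM. DLA-79, a class I gene of the dog, had 4.142, 15.37 and 5.649 FPKM. DLA88, a class I gene spelled differently in the list and so outside these sums, had 386.8, 761.8 and 290.3 FPKM and a CV of 0.519. DLA-12, also of class I, had 272.9, 236.8 and 314.3 FPKM. DLA-79 and DLA88 were highest in control replicate 2 and DLA-12 in control replicate 3. Class I genes are near-copies of each other, and DLA-12 overlaps DLA88, so their separate levels are uncertain.

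Selenoproteins, which carry selenocysteine, are the genes most directly tied to the selenium supply that the series varied, and the control snack carried no CPP-Se. The 18 genes summed to 3992, 5846 and 3999 FPKM, of which GPX1 made up 84.29%, and 11 reached 1 FPKM in all 3 dogs. MSRB1, a methionine sulfoxide reductase, had 435.8, 413.4 and 405.4 FPKM, and SELENOW had 222.7, 210.1 and 165.8 FPKM. SELENOP, the plasma carrier of selenium, had 15.19, 21.75 and 50.99 FPKM, highest in control replicate 3. GPX3, the plasma glutathione peroxidase, varied most, with 1.295, 2.869 and 0.2356 FPKM. GPX2, DIO1 and DIO2, genes of gut, liver and thyroid hormone metabolism, were listed at 0 in all 3 dogs.

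Ribosomal protein genes with a symbol (59 genes) summed to 27831, 27951 and 22924 FPKM, 5.417% ± 0.4274 of the total, and control replicate 3 was the lowest dog in 44 of 54 members. RPS14 had 1523, 1647 and 1233 FPKM, and RPL8 had 1497, 1469 and 1180 FPKM. RPLP0 went the other way, with 1007, 1062 and 1168 FPKM. RPS28, RPS23, RPL3L and RPL10L were listed at 0 in all 3 dogs. A further 391 genes were described as ribosomal proteins without such a symbol, of which 207 were at 0 in all 3 dogs, and reads may be split among these copies.

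Among the 9716 genes whose mean was 1 FPKM or more, the median CV over the 3 dogs was 0.206, and the median CV that counting alone would give was 0.118. In 20.17% of these genes the CV was at or below that of counting. The median CV was 0.35 for genes with a mean of 1 to 2 FPKM, 0.18 for 5 to 10 FPKM and 0.129 for 200 to 1000 FPKM. It was 0.158 for the 40 genes of 1000 FPKM and over, above the 200 to 1000 class although the median counting CV there was 0.00849.

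**Figure D5:**
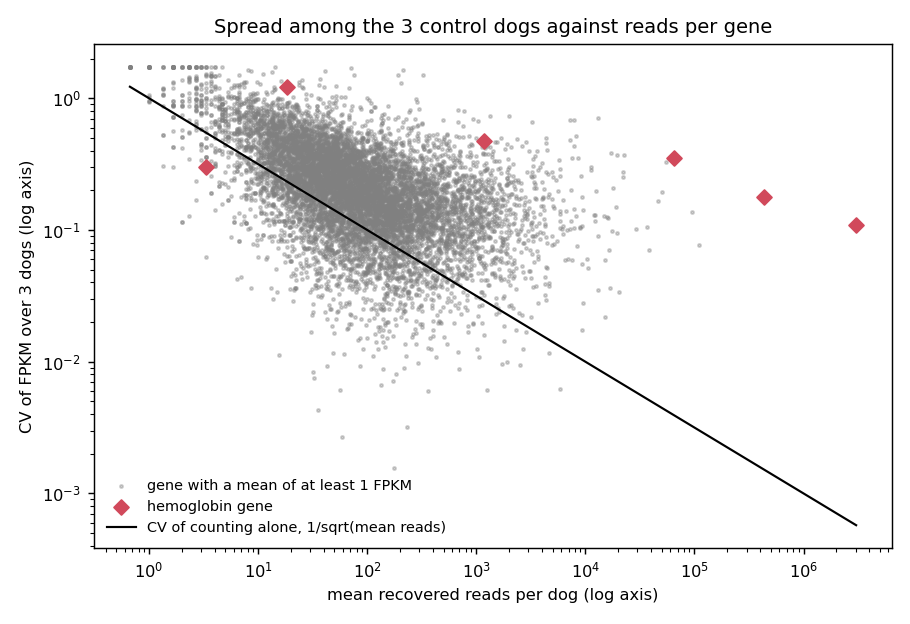
CV of FPKM over the 3 control dogs against mean recovered reads per dog, both on log axes, 1 point per gene whose mean was 1 FPKM or more; the line is the CV of counting alone. The cloud follows the line at low reads and leaves it at high reads, where the hemoglobin genes have CVs of 0.11 (alpha), 0.177 (beta) and 0.352 (HBM).

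By biotype the median CV was 0.195 for protein-coding genes, 0.38 for lncRNA genes, 0.447 for assembly-only genes and 0.885 for microRNA genes, which also differ in their reads per gene. A 2-fold or larger range between the highest and the lowest dog was found in 2336 of the 9716 genes (24.04%). Among the 4048 genes with at least 100 mean reads it was found in 292 (7.213%). Most genes with a wide range thus held under 100 mean reads.

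Of the 2783 genes averaging 10 FPKM or more and 100 reads or more, the widest CVs mostly belonged to genes high in a single dog. Among 3 values the largest CVs arise from a single high value, so this follows from the ranking by CV. Several of these genes passed the mean of 10 FPKM only through that dog. An assembly-only gene on chromosome 14, positions 26865096 to 26867819, had 1.029, 0.9787 and 59.82 FPKM. ENSCAFG00000029403, described as transaldolase, an enzyme of the pentose phosphate pathway, had 64.97, 2.264 and 3.699 FPKM. ENSCAFG00000046771, within the heavy chain locus, had 1.006, 6.889 and 76.38 FPKM. LY6G6C, a small membrane-anchored protein, had 34.11, 0.8292 and 172.4 FPKM. Control replicate 3 was high in all of these except the transaldolase gene, which was high in control replicate 1.

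TMEM43, a nuclear envelope protein, had 11.26, 7.507 and 45.9 FPKM. SLC3A2, the heavy chain of amino acid transporters, had 23.55, 25.77 and 90.63 FPKM. RHCE, a Rh blood group gene, had 8.267, 19.95 and 3.428 FPKM, with the order of dogs of the red cell list. ENSCAFG00000030501, described as interferon gamma receptor 2, had 5.263, 41.4 and 22.35 FPKM. Control replicate 3 was highest in 39.92% of the 2783 genes, control replicates 1 and 2 in 30.04% each.

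The narrowest CVs lay below what counting alone gives and so describe a close match of 3 values rather than a measured stability. PIAS3, a SUMO ligase, had 11.09, 11.02 and 11.05 FPKM, with a CV of 0.00317 against 0.0656 from counting. ZYX, the adhesion protein zyxin, had 574.5, 572.5 and 579.4 FPKM from over 5000 reads in each dog. LMO2, a blood transcription cofactor, had 55.52, 55.04 and 55.94 FPKM. CCDC88B, HM13, VPS72, SERINC1, DENND5A, TUFM and ENSCAFG00000009228 completed the 10 lowest.

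Of the genes with a symbol that averaged 1 FPKM or more, ACTA2 had the largest ratio of the highest dog to the middle dog. ACTA2, the actin of vascular smooth muscle, had 0.2128, 0 and 19.24 FPKM, from 2, 0 and 213 reads. APOC1, an apolipoprotein, had 0.7962, 0.2129 and 20.11 FPKM, from 4, 1 and 119 reads. KCNK12, a potassium channel gene, had 0.2, 0 and 3.227 FPKM. All of these were high in control replicate 3.

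SLC4A8, a bicarbonate transporter, was high in control replicate 2, with 0.1164, 2.656 and 0.2964 FPKM, and so was ADH4, an alcohol dehydrogenase, with 0.5768, 3.208 and 0.4897 FPKM. LAG3, an inhibitory receptor of T cells, had 0.4206, 0.15 and 2.976 FPKM, from 3, 1 and 25 reads. SAMD10 and ASB9 were high in control replicate 3 and CRIP3 and CCDC58 in control replicate 1. Among these 10 genes 6 were high in control replicate 3, and most rested on under 40 reads in their highest dog.

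Across the 9716 genes, the squared Pearson correlation of log2(FPKM + 1) was 0.9143 between control replicates 1 and 2, 0.9088 between 1 and 3 and 0.8805 between 2 and 3. The genes share library, depth and annotation and are no replicates, so no test was made. Between these pairs 1196, 1221 and 1589 genes differed 2-fold or more, 12.31%, 12.57% and 16.35% of the 9716. The median log2 difference was within 0.02 of 0 in each pair, a value that depends on how the libraries were scaled. Control replicates 2 and 3 were thus the least alike pair by the correlation and by the number of genes that differed 2-fold.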

How the data were processed

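RNA of whole blood of the control dogs was extracted with Trizol and poly-A RNA was enriched with oligo(dT) beads. NEBNext Ultra libraries were run as paired-end reads on a NovaSeq. Reads were aligned by the authors with HISAT2 2.0.5 to the Ensembl release 100 dog genome. The authors deposited FPKM per gene, which divide mapped reads by gene length. The submitters' processing notes also name CASAVA 2.19, fastp 0.19.7 and featureCounts 1.5.0-p3. Strand use, multi-mapping and the library size behind FPKM are not given in the sources used here: the library size implied by the values was 1.035, 0.933 and 1.049 times the reads on genes in control replicates 1, 2 and 3.

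Only the 3 control columns were read, grouped by their labels. Reads were recovered as FPKM times length over the smallest step of each library, which was taken as 1 read, within 0.01 of a whole read, and the recovery was tested on simulated data. Shares, SDs, CVs (SD over mean) and squared correlations of log2(FPKM + 1) were computed with Python 3.11.15, numpy 2.4.6 and pandas 2.3.3, and figures with matplotlib 3.10.9. The CV of counting is 1 over the square root of the mean reads. No test was made, since a single group was described. The members and lists were chosen with earlier results of these data known.

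The named genes were the 20 highest, the 3 highest of each biotype with at least 0.01% of FPKM, the 5 highest, the most variable and the undetected members of each list, the 15 most and 10 least variable of the 2783 genes with at least 10 FPKM and 100 reads, and the 10 genes whose highest dog most exceeded the middle one. Some genes that this rule covers are not reported here. CD8A, DLA88, MPO, ELANE, CD34, the ferritin and antigen receptor constant genes found by description, and the members of the smooth muscle and macrophage lipid lists were named after their values were seen. The hemoglobin genes are the 8 described as hemoglobin subunits, because 3 symbols that begin with HB (HBP1, HBS1L and HBEGF) encode other proteins. Alternatives tried were other thresholds, scalings, pseudocounts, reads in place of FPKM, and leaving out each dog.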

Additional observations from a re-analysis of the deposited data

How the results depend on the processing

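By recovered reads in place of FPKM, the 20 highest genes held 57.54%, hemoglobin genes 50.33% and protein-coding genes 97.9%, since FPKM divides by length. Without hemoglobin genes the 20 highest held 22.96% and protein-coding genes 93.87%, and without mitochondrial genes protein-coding genes held 96.41%. With HB symbols added, a choice made after seeing the data, hemoglobin held 35.76%. Genes reaching the threshold in all 3 dogs numbered 4239 at 5 FPKM and 2729 at 10 FPKM. The median CV was 0.3205 over all genes above 0, 0.1436 at 10 FPKM or more, 0.1394 at 100 reads or more and 0.1555 with counting error subtracted. Leaving out a dog gave 0.1551 (without control replicate 3) to 0.1912 (without control replicate 1). Genes with a 2-fold range numbered 314 at 10 FPKM or more, 292 at 100 reads or more and 1344 with a pseudocount of 1, and 1170 (without control replicate 2) to 1574 (without control replicate 1) with 2 dogs, where a range can only be smaller. The lowest squared correlation was 0.7885 with a pseudocount of 0.1, 0.9456 over all genes, 0.803 by Spearman, and 0.8805 to 0.9143 when a dog was left out. Without their highest gene list sums can only fall, and 18 of 21 fell by more than 1 SD. The highest dog was the same in 12 of 21 lists without that gene and in 15 of 21 by mean log2(FPKM + 1). No paired analysis was possible because a single group was described. With 3 dogs the SDs are themselves imprecise, and genes of few reads are limited by depth.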

Other observations

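Lists for smooth muscle and for macrophage lipid handling were added after the high ACTA2 and APOC1 levels of control replicate 3 had been seen, and are given as values only. Of the 6 smooth muscle genes matched, MYL9, a myosin light chain that platelets also express, had 95.03, 105.5 and 85.46 FPKM in control replicates 1, 2 and 3. TAGLN (transgelin) had 1.863, 4.22 and 2.698 FPKM, CNN1 (calponin) had 0.9638, 2.651 and 4.092 FPKM, and MYH11 had 3.336, 4.203 and 4.54 FPKM. DES (desmin) held no more than 1 read in any dog. ACTA2 was thus the only one of the 6 that was over 10 times higher in control replicate 3 than in both other dogs.

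Of the 8 macrophage lipid genes, SLC40A1, the iron exporter ferroportin, had 36.72, 45.62 and 28.34 FPKM. APOE, which overlaps APOC1, held 0, 0 and 5 reads, and C1QA had 2.529, 0.6763 and 0 FPKM. LPL was listed at 0 in all 3 dogs. The annotated span of APOC1 also overlaps BCL3 and TOMM40 on the same strand, so the APOC1 level is uncertain.

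The ratio of the platelet sum to the neutrophil sum was 0.4806, 0.57 and 1.105, and that of the red cell sum to the neutrophil sum was 3.249, 6.196 and 2.619. The ratio of T cell (without CD4) to B cell sums was 0.723, 1.112 and 0.7917. Control replicate 2 was highest in the second and the last of these ratios, control replicate 3 in the first.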
